A study of Mus musculus with 72 samples.

Results

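The genes described are the subunits of the proteasome, taken as every gene whose symbol is Psma, Psmb, Psmc or Psmd followed by a number and that is listed in all 4 deposited count tables. The rule found 39 genes among the 28369 listed in all 4 tables. They fall into 7 subunits of the alpha ring, 7 constitutive subunits of the beta ring, 3 immunoproteasome subunits, 2 tissue-specific core subunits, 6 ATPases and 3 non-ATPases of the regulatory base, 8 subunits of the regulatory lid, and 3 chaperones of base assembly. The choice used names alone and no measured value.

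The samples are Eμ-Myc B-lymphoma cells: the tumours arose from a Myc transgene that an immunoglobulin heavy chain enhancer drives in the B lineage. In the acute study, cells of 1 Gfp-marked clone (#4242, carrying the MSCV Gfp vector) were transplanted into C57BL/6 mice, and lymph nodes were taken from mice that had received drug on day 10 for 2 h. The groups, of 6 mice each, were vehicle, CX5461 (35 mg/kg), everolimus (5 mg/kg) and the combination of the 2 drugs at these doses. In the relapse study, cell lines came from mice bearing another single clone (#107, with the same vector) that had succumbed to lymphoma after vehicle (called drug-naive), CX5461, everolimus or both drugs. The lines had been grown for only a few passages, with 3 lines in each group and each line from 1 mouse. CX5461 inhibits transcription of ribosomal RNA genes by RNA polymerase I, and everolimus inhibits the growth kinase complex mTORC1. From every mouse and line there was 1 library of total cytoplasmic (input) RNA and 1 of polysomal RNA, the messages bound to several ribosomes, so a comparison of fractions asks how a message was loaded for translation. The acute study addressed the early response to drugs aimed at the ribosome and the relapse study addressed resistance to them.

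The proteasome degrades proteins that are tagged with ubiquitin. Its barrel-shaped core, the 20S particle, has outer rings of alpha subunits that gate entry and inner rings of beta subunits, of which Psmb6, Psmb7 and Psmb5 carry the caspase-like, trypsin-like and chymotrypsin-like active sites. In blood cells and after interferon signalling these are replaced by Psmb9, Psmb10 and Psmb8, which form the immunoproteasome and cut peptides suited to presentation on major histocompatibility complex (MHC) class I. The 19S regulatory particle caps the core: a base with a ring of ATPases (Psmc genes) unfolds substrates, and a lid removes the ubiquitin chain through the enzyme Psmd14. Psmd5, Psmd9 and Psmd10 help to assemble the base and are not part of the finished particle. Psma8 is a core subunit of the testis and Psmb11 of the thymic cortex.

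The libraries held 17.1 to 24.7 M counts in the acute input, 11.5 to 20.9 M in the acute polysomal RNA, 14.6 to 26.02 M in the relapse input, while the relapse polysomal libraries held 15.5 to 30.4 M. The proteasome genes took 0.225% to 0.737% of these counts. In 3 acute input libraries (CX5461 mice 4 and 6, everolimus mouse 2) over 10% of counts lay on Gm26870 and Gm10800, and in 4 acute polysomal libraries (vehicle mice 2, 5 and 6, CX5461 mouse 6) over 10% lay on Lars2 and Yam1. The input libraries of everolimus mice 1 and 3 were the most alike pair of any group, with a mean variance between them that was 3.01-fold what sampling gives, where the next most alike pair had 7.77-fold. They differed by more than sampling noise and were counted as 2 mice. In both relapse tables the alphabetical order of the column names starts again partway, and each such stretch is called a run of columns. Drug-naive lines 33 and 38 lay in run 1 of the input and run 2 of the polysomal RNA. Drug-naive line 6 lay in run 2 of the input and run 1 of the polysomal RNA. The columns of CX5461 lines 14 and 39 come last in the polysomal RNA, as a run of their own, and results of proteasome genes are given with and without them. What a run stands for is not stated. B cell markers were present throughout, with 9 of 11 above a mean of 1 CPM (counts per 1000000 counts) in every table. The nodes also held T cell RNA, with 15 of 15 markers above that level in the acute tables and 1 of 15 in the relapse lines, where Trbc2 was at 0 in the input and Cd3e at 0 in the polysomal RNA.

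Stretches upstream of the immunoproteasome gene Psmb8, the immunoproteasome gene Psmb10 and the constitutive counterpart Psmb5 are shown because the results set these 2 classes of catalytic subunit side by side. The sequences are from RefSeq (GRCm38.p6), and capitals mark a match to the interferon-gamma activated site TTCNNNGAA or the antioxidant response element TGACNNNGC, both searched on both strands in the 250 bases before each annotated start.
Psmb8 (chr17:34198088-34198116, plus strand): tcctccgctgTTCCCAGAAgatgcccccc
Psmb10 (chr8:105938445-105938642, minus strand): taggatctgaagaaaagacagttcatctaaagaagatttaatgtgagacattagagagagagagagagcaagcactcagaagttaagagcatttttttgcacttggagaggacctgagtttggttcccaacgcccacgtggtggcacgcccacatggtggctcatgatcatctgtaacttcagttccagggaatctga
Psmb5 (chr14:54618023-54618245, minus strand): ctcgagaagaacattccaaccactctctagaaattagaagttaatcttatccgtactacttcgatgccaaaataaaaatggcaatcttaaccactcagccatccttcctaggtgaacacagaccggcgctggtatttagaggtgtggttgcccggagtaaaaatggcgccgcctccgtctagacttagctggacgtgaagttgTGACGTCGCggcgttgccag
The window of Psmb8 lay wholly inside annotated exons, so the match alone is shown with its flanks. For Psmb10 and Psmb5 the last 52 and 27 bases of the window lay in exons and were left out. Of the 39 genes, 32 had a promoter entry.

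The activated site was found in 1 of these 32 genes, at -97 in Psmb8, against 7.02% of all 32851 promoters of the same length. The interferon-stimulated response element in the form GAAA, NN, GAAA without a gap was found in Psmb3, Psmd4 and Psmd9, against 2.98% of all promoters. The antioxidant response element, which the factors Nfe2l1 and Nfe2l2 bind, was found in Psmb5, Psmb6, Psmc6, Psmd12 and Psmd9, against 10.2%. The match in Psmb5 lay at -47 and that in Psmb6 at -9. A match of letters is a description of the sequence and not evidence of binding. The 3 motifs differ in letters, and the matches shown do not overlap.

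Levels between genes are compared per kilobase of exon, in CPM per kb, and only in input RNA of the control groups. In the nodes of vehicle mice the order was led by the chymotrypsin-like subunit Psmb5 (120 ± 22.5 CPM per kb, mean ± SD, n = 6), the beta ring subunit Psmb2 (110 ± 15.4) and the alpha ring subunit Psma6 (107 ± 12.6), which did not differ beyond their spread. The immunoproteasome genes stood at places 14, 17 and 34 of 39, with 62.3 ± 8.14 for Psmb8, 49.8 ± 8.07 for Psmb10 and 17.6 ± 2.09 for Psmb9. Psmb10 was thus above its counterpart Psmb7 (40.4 ± 4.24), whereas Psmb8 was below Psmb5 and Psmb9 below Psmb6 (68.5 ± 12.7). The base assembly chaperones, at 4.97 to 6.70, were lower than every gene but the tissue-specific subunits. Psmb11 was at 0.166 and Psma8 at 0.0488, with 1 to 4 counts of Psma8 per library, and Psma8 was left out of all main tests by the filter on low counts. The other 38 genes passed it in every main fit. With the compared groups alone, 37 passed for each drug group against vehicle in acute polysomal RNA. In the drug-naive cultured lines the order was led by the lid subunit Psmd8 (71.3 ± 2.54, n = 3), Psmb2 (68.4 ± 0.500) and Psmb6 (60.8 ± 14.1). Psmb5, at 37.3 ± 16.2, stood at place 10, with line 6 the lowest of its lines. The 2 studies were counted and scaled separately and use different clones, so these orders are given side by side and not tested against each other.

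Input RNA in the acute study asked how proteasome transcripts stood 2 h after treatment. In each comparison the difference is a log2 fold change with its standard error from edgeR's quasi-likelihood test, and a gene was called at a Benjamini-Hochberg adjusted p below 0.05 over all genes tested. All drug groups were compared with the same 6 vehicle mice, so their fold changes share the error of that group. After CX5461 alone no proteasome gene passed: edgeR called 0 of 38, with 1 at an unadjusted p below 0.05 and 0 by DESeq2, against 0.399% of all genes called in either direction. The smallest p belonged to Psmd1, the large scaffold of the base, at 0.15 ± 0.06 (adjusted p = 0.365), and the median over the 38 genes was 0.02. The immunoproteasome genes were at -0.04 ± 0.12 (Psmb8, 142 to 267 CPM), -0.17 ± 0.10 (Psmb9, 44.1 to 69.4 CPM) and -0.13 ± 0.12 (Psmb10, 52.9 to 94.2 CPM) and overlapped with vehicle. After everolimus alone edgeR also called 0 of 38, against 0.106% of all genes called in either direction. Of the 38 genes 10 were lower at an unadjusted p below 0.05, and DESeq2 called 0. Here and below, each share of all genes called is that of edgeR at the adjusted threshold. Counts at an unadjusted p or by DESeq2 are given without their own share over all genes. The estimates were negative for 36 of 38 genes with a median of -0.13, whereas the median over all genes was 0.00. The smallest p was that of the lid subunit Psmd11 (-0.16 ± 0.06, adjusted p = 0.237), whose levels were 86.8 to 108 CPM after everolimus and 108 to 125 CPM after vehicle and did not overlap. After everolimus Psmb8 (166 to 221 CPM, -0.13 ± 0.12), Psmb9 (49.7 to 63.7 CPM, -0.17 ± 0.10) and Psmb10 (65.6 to 81.7 CPM, -0.22 ± 0.12) overlapped with vehicle and did not pass.

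**Figure D1:**
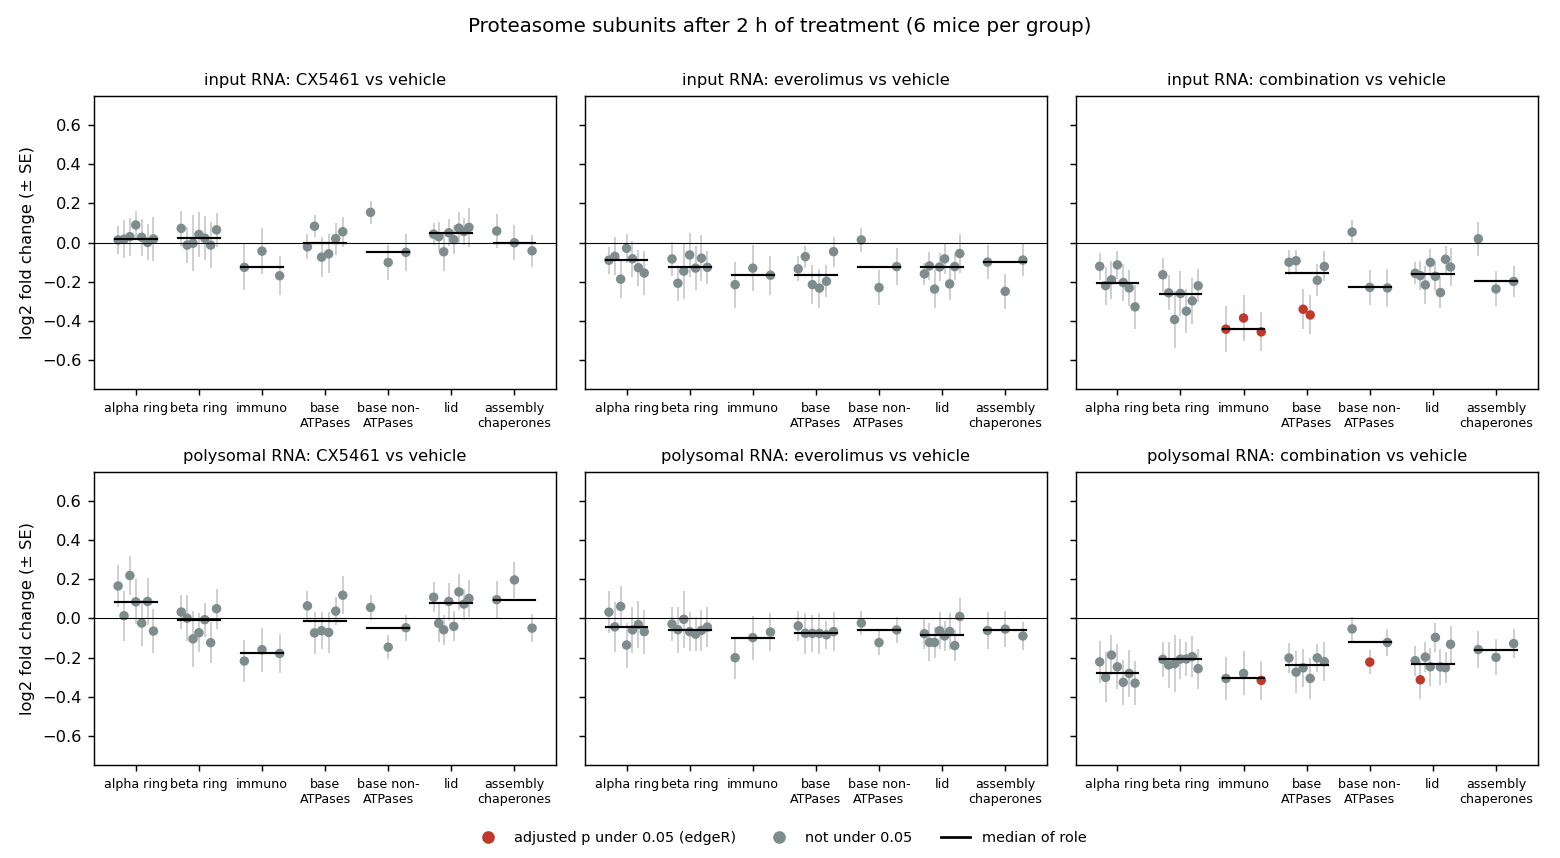
Log2 fold change against vehicle (points, with bars of 1 standard error) of each proteasome gene in the acute study, by role, for CX5461, everolimus and the combination in input and polysomal RNA; red points have an adjusted p below 0.05 and horizontal bars are the median of a role. In the combination panels nearly all points lie below 0, with the immunoproteasome lowest in the input (median -0.44); Psmb11, with very low counts, is not drawn.

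With both drugs together the immunoproteasome transcripts fell in input RNA. All 3 were called, along with 2 of the 6 ATPases, so that 5 of 38 genes fell by edgeR, against 4.17% of all genes called lower and 3.31% called higher. Psmb9, the subunit that replaces Psmb6, had 55.2, 62.3 and 73.7 CPM (lowest, median and highest of 6) after vehicle and 39.9, 46.3 and 53.5 CPM after the combination. Every combination mouse was below every vehicle mouse, with a fold change of -0.46 ± 0.10 (1.37-fold lower, adjusted p = 0.00936). Psmb10, which replaces Psmb7, had 72.6, 78.3 and 106 CPM after vehicle and 47.1, 64.9 and 71.1 CPM after the combination, again without overlap. Its fold change was -0.44 ± 0.12 (1.36-fold lower, adjusted p = 0.0289). Psmb8, which replaces Psmb5, had 183, 200 and 248 CPM after vehicle and 128, 166 and 185 CPM after the combination, and 5 of 6 combination mice were below all vehicle mice. It fell by 0.39 ± 0.12 on the log2 scale (1.31-fold, adjusted p = 0.0463).

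The constitutive counterparts of these subunits had negative estimates that missed the threshold. Psmb5 had 86.3, 101 and 134 CPM after vehicle and 69.9, 84.4 and 98.9 CPM after the combination (-0.35 ± 0.11, adjusted p = 0.0526). Psmb6 had 106, 120 and 159 CPM against 80.2, 108 and 118 CPM (-0.30 ± 0.12, adjusted p = 0.0995). Psmb7 had 122, 134 and 157 CPM against 102, 122 and 132 CPM (-0.22 ± 0.09, adjusted p = 0.0943). The groups overlapped for each of the 3. Within a mouse, the level of Psmb10 over Psmb7 per unit length had a median of 1.22 (range 1.10 to 1.36) after vehicle and 1.06 (0.926 to 1.19) after the combination. Psmb9 over Psmb6 had medians of 0.261 and 0.234, and Psmb8 over Psmb5 of 0.525 and 0.494, and these ranges overlapped too. So the data do not show that the immunoproteasome fell more than its counterparts, which was not tested as a difference.

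**Figure D2:**
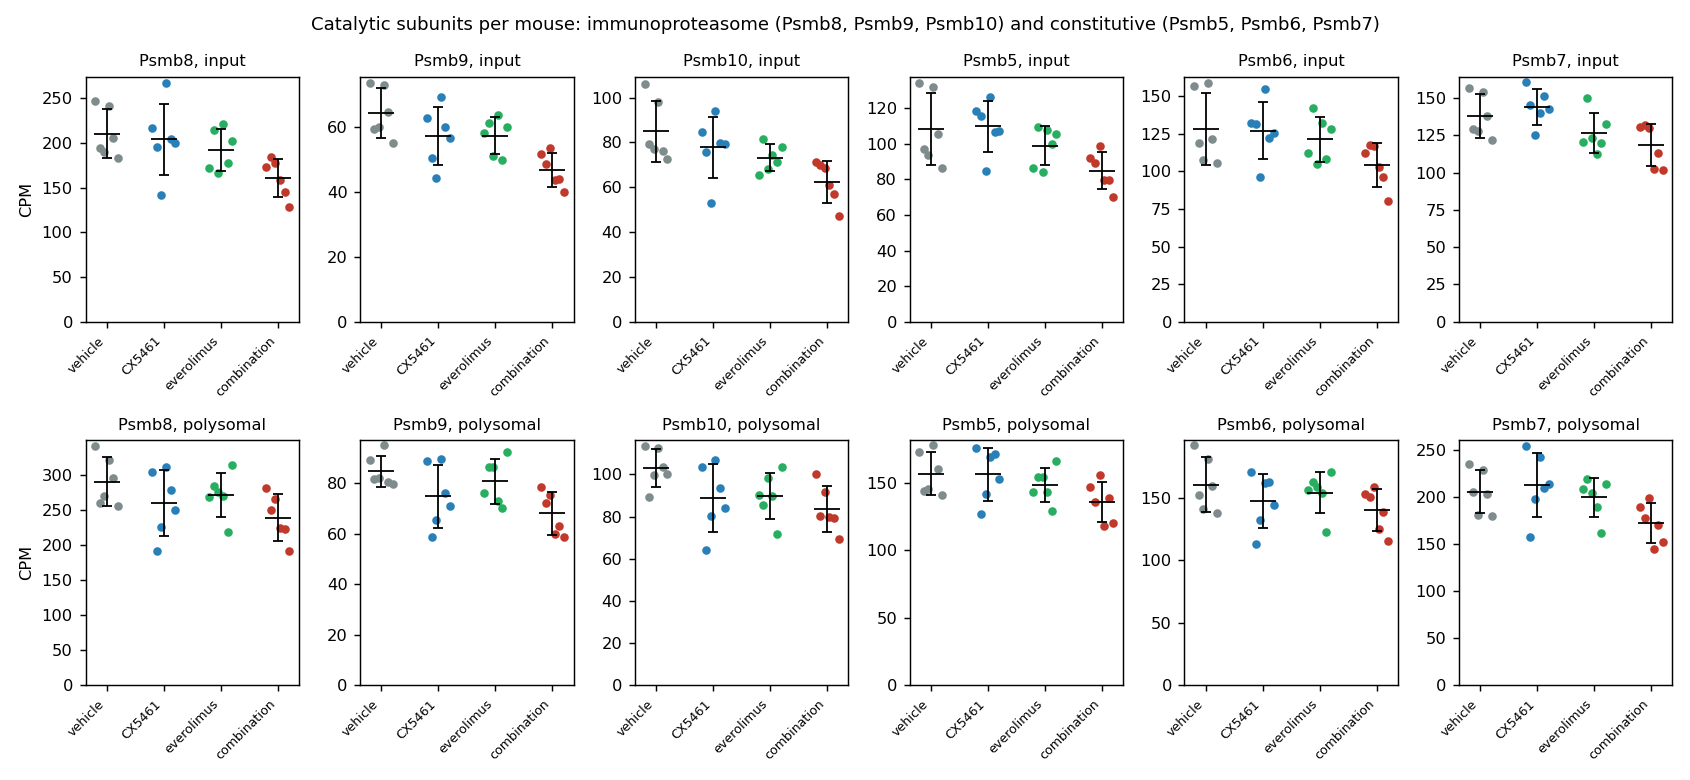
CPM of the immunoproteasome genes Psmb8, Psmb9 and Psmb10 and of their constitutive counterparts Psmb5, Psmb6 and Psmb7 in each mouse of the acute study (points) with the mean and SD (n = 6), in input and polysomal RNA, by treatment. In the input the combination mice lie below all vehicle mice for Psmb9 (39.9 to 53.5 against 55.2 to 73.7 CPM) and Psmb10, whereas the constitutive genes overlap.

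Among the regulatory subunits, the ATPase Psmc4 had 141, 161 and 198 CPM after vehicle and 101, 128 and 150 CPM after the combination, with overlap (-0.37 ± 0.10, adjusted p = 0.0298). The ATPase Psmc3 had 166, 180 and 236 CPM against 122, 153 and 180 CPM, also with overlap (-0.34 ± 0.10, adjusted p = 0.0419). The rest of the particle had small negative estimates, with a median of -0.23 over the 14 constitutive core genes and -0.17 over the 17 regulatory genes, against 0.00 over all genes. At an unadjusted p below 0.05, 25 of the 38 genes were lower and none higher. DESeq2 called 10. Leaving out vehicle mouse 6 and combination mouse 3, which had the lowest Psmb9 of the vehicle and the highest of the combination mice, raised the count to 18. Leaving out the mice nearest the other group widens the difference in Psmb9 by itself, so the rise is not taken as support. Psmb9 and Psmb10 were called under all 8 alternatives run and Psmb8 under 7, the exception having an adjusted p of 0.0510. The fit without those mice is among the 8, and all 5 called genes kept their call under it. Psmc4 was called under 7 and Psmc3 under 4 of the 8, with adjusted p up to 0.0542 and 0.0725. Across genes, fold change and transcript GC content had a Spearman correlation of -0.62 over 37 proteasome genes and -0.34 over 14982 genes tested, which share these libraries. The transcripts of Psmb8, Psmb9 and Psmb10 hold 55.8%, 55.3% and 56.5% GC, and the part of GC content in the calls was not tested.

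The combination differed from single drugs in few input transcripts. Against CX5461, 1 of 38 genes was lower by edgeR, against 0.218% of all genes called lower and 0.648% higher. This was the lid subunit Psmd6, with 49.2, 59.3 and 69.1 CPM after CX5461 and 43.0, 46.3 and 52.1 CPM after the combination (-0.33 ± 0.08, adjusted p = 0.0498). The groups overlapped, and the call was lost under 5 of 8 alternatives, among them leaving out the 3 libraries rich in Gm26870 and Gm10800. A further 27 genes were lower at an unadjusted p below 0.05, and DESeq2 called 10. The immunoproteasome genes were at -0.34 (Psmb8), -0.29 (Psmb9) and -0.32 (Psmb10), with adjusted p from 0.0928 to 0.112. Against everolimus, edgeR called 0 of 38 genes, with 2 at an unadjusted p below 0.05 and 0 by DESeq2, where 0% of all genes were called. Psmb9 had the smallest p there (-0.29 ± 0.10, adjusted p = 0.351).

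In polysomal RNA neither single drug changed a proteasome gene past the threshold. After CX5461 edgeR called 0 of 38, with 3 at an unadjusted p below 0.05 and 0 by DESeq2, against 0.878% of all genes. Psmd2, a scaffold of the base beside Psmd1, had the smallest p, with 503 to 564 CPM against 565 to 632 CPM after vehicle (-0.15 ± 0.06, adjusted p = 0.237). The immunoproteasome genes were at -0.16 (Psmb8), -0.18 (Psmb9) and -0.22 (Psmb10), none past the threshold. After everolimus edgeR called 0 of 38, with 1 at an unadjusted p below 0.05 and 0 by DESeq2, against 0.15% of all genes. That gene was Psmb11 (1.08 ± 0.42, adjusted p = 0.35), whose libraries held 1 to 13 counts in both groups. The median over the 38 genes was 0.01 after CX5461 and -0.07 after everolimus, where Psmb8 was at -0.10, Psmb9 at -0.07 and Psmb10 at -0.20.

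With both drugs, 3 of 38 proteasome genes fell in polysomal RNA, against 2.95% of all genes called lower and 4.46% higher. Psmd2 had 565, 571 and 632 CPM after vehicle and 446, 512 and 567 CPM after the combination, with slight overlap (-0.22 ± 0.06, adjusted p = 0.0335). The lid subunit Psmd12 had 106, 122 and 143 CPM after vehicle and 86.0, 100 and 116 CPM after the combination (-0.31 ± 0.10, adjusted p = 0.0476). Psmb9 had 79.7, 81.8 and 95.2 CPM after vehicle and 58.8, 67.7 and 78.7 CPM after the combination, and was the 1 called gene without overlap (-0.32 ± 0.10, adjusted p = 0.0486). All 3 adjusted p-values lay near the threshold. The other immunoproteasome genes did not pass. Psmb8 had 255, 282 and 341 CPM against 191, 237 and 281 CPM (-0.28 ± 0.11, adjusted p = 0.108), and Psmb10 had 89.4, 102 and 114 CPM against 69.3, 80.1 and 100 CPM (-0.31 ± 0.11, adjusted p = 0.073).

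The constitutive catalytic genes were at -0.21 ± 0.09 for Psmb5, -0.19 ± 0.10 for Psmb6 and -0.26 ± 0.10 for Psmb7 in the polysomal RNA of the combination mice. Their polysomal CPM were 118, 137 and 156 (lowest, median and highest) against 141, 153 and 178 after vehicle for Psmb5. They were 116, 145 and 159 against 138, 156 and 192 for Psmb6, and 145, 175 and 199 against 180, 205 and 236 for Psmb7. All 3 pairs of groups overlapped and none of these genes passed. The estimate was negative for 37 of the 38 proteasome genes, with a median of -0.22, against 0.00 over all genes. At an unadjusted p below 0.05, 26 were lower and 1, Psmb11, higher. DESeq2 called 9. No gene passed with no filter on low counts, and 21 did (20 lower and 1 higher) without vehicle mouse 6 and combination mouse 3. These mice were chosen after a look at the data, so this count is not taken as support.

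The widest difference among the acute groups lay between the combination and CX5461 alone in polysomal RNA, where 15 of 38 proteasome genes were lower, against 10.5% of all genes called lower and 13.1% higher. At an unadjusted p below 0.05, 22 were lower, and DESeq2 called 19 lower. These were 4 of 7 alpha ring genes, 2 of 7 constitutive beta ring genes, 3 of 6 ATPases, 5 of 8 lid genes and 1 of 3 base assembly chaperones. The alpha ring subunit Psma3 had 118, 142 and 175 CPM after CX5461 and 97.9, 108 and 123 CPM after the combination (-0.41 ± 0.10, adjusted p = 0.00723). The chaperone Psmd5 had 57.1, 66.5 and 73.7 CPM after CX5461 and 42.2, 52.5 and 55.4 CPM after the combination, without overlap (-0.40 ± 0.09, adjusted p = 0.00453). Psma1, of the alpha ring, was at -0.39 ± 0.11 and the lid subunit Psmd6 at -0.38 ± 0.09.

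Psmd14, the lid enzyme that removes ubiquitin chains, had 113, 139 and 163 CPM after CX5461 and 101, 109 and 123 CPM after the combination (-0.33 ± 0.10, adjusted p = 0.0147). The ATPases Psmc6 and Psmc1 were at -0.34 ± 0.10 and -0.27 ± 0.08. Among constitutive catalytic genes Psmb7 fell (158, 212 and 255 CPM against 145, 175 and 199 CPM, -0.31 ± 0.10, adjusted p = 0.0329), and Psmb1, a structural beta subunit, fell by 0.24 ± 0.09 but kept its call under only 3 of 8 alternatives (adjusted p up to 0.105). The immunoproteasome genes did not pass, at -0.12 (Psmb8), -0.14 (Psmb9) and -0.09 (Psmb10) with adjusted p from 0.315 to 0.572. Psmb5 (-0.20, adjusted p = 0.0933) and Psmb6 (-0.07, adjusted p = 0.643) did not pass either. Of the 15 called genes the groups did not overlap for Psmd5 and for Psmd11, the second named after its values were seen (156 to 199 against 123 to 154 CPM). How many of all genes did not overlap was not counted. Across genes, the fold change and the GC content of the transcript had a Spearman correlation of 0.81 over 37 proteasome genes and 0.28 over 14466 genes tested, in which all points share the same libraries, and its part in the calls was not tested. In vehicle mice Psma3 had 108, 115 and 145 CPM and Psmd5 had 44.9, 56.9 and 68.6 CPM, between the medians of the 2 drug groups. Leaving out the 4 libraries rich in Lars2 and Yam1 lowered the count to 9. Against everolimus edgeR called 0 of 38 in polysomal RNA, with 9 at an unadjusted p below 0.05 and 0 by DESeq2, where 0.0195% of all genes were called.

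Translational efficiency, the change of the polysomal level beyond that of the input in the same mice, asked whether loading on ribosomes changed with treatment. By edgeR 0 of 38 proteasome genes were called after CX5461, everolimus or the combination, where 0% of all genes were called in each of the 3. At an unadjusted p below 0.05 there were 2, 3 and 2 genes, and DESeq2 called 0 in each. The smallest p belonged to Psmd5 after CX5461 (0.22, adjusted p = 0.971), Psma3 after everolimus (0.26, adjusted p = 0.577) and Psmd12 after the combination (-0.14, adjusted p = 0.316). The medians over the 38 genes were 0.01, 0.07 and 0.01. After the combination the immunoproteasome genes were at 0.11 ± 0.09 (Psmb8), 0.14 ± 0.08 (Psmb9) and 0.14 ± 0.10 (Psmb10).

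In vehicle mice, polysomal and input RNA of the same nodes differed for 24 of the 38 proteasome genes, in both directions. To compare fractions, both were scaled together, so the CPM here differ from those above. Among the regulatory genes 10 of 17 were higher in polysomal RNA and 2 lower, among the constitutive core genes 3 of 14 were higher and 5 lower, and in all 38 genes 16 were higher and 8 lower. The difference between roles was not tested. Of all genes tested 24.7% were called higher and 32.2% lower. The median over the 38 genes was 0.08 against -0.07 over all genes. Because the 2 fractions were each sequenced to a fixed depth, a higher value means a larger share of the polysomal library and not more molecules.

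The base scaffold Psmd1 had 136, 153 and 161 CPM in input and 221, 251 and 267 CPM in polysomal RNA, without overlap (0.71 ± 0.05, 1.64-fold higher, adjusted p = 6.94e-13). Its partner Psmd2 rose from 374, 409 and 487 CPM to 504, 511 and 572 CPM, also without overlap (0.35 ± 0.05). The chaperone Psmd10, also known as gankyrin, had 8.17, 9.78 and 11.3 CPM in input and 13.2, 14.8 and 17.6 CPM in polysomal RNA (0.60 ± 0.09). Large base subunits and this chaperone thus stood higher on polysomes in 6 of 6 mice. In the lid Psmd7 was higher (102, 110 and 119 against 138, 152 and 176 CPM, 0.48 ± 0.05), whereas Psmd8 was lower in each of 6 mice (310, 333 and 384 against 241, 273 and 343 CPM, -0.25 ± 0.05). Of the ATPases Psmc6 was higher (0.38 ± 0.05) and Psmc4 lower (155, 178 and 219 against 126, 139 and 177 CPM, -0.32 ± 0.06).

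In the core, the beta ring subunit Psmb3 had 163, 187 and 288 CPM in input and 134, 144 and 199 CPM in polysomal RNA and was lower in each of 6 mice (-0.40 ± 0.09, adjusted p = 0.00032). Psmb2 (-0.36 ± 0.06) and the alpha ring subunit Psma3 (-0.31 ± 0.05) were lower and Psma4 (0.25 ± 0.07) higher. The catalytic genes Psmb5 (94.8, 112 and 150 against 127, 137 and 161 CPM, 0.25 ± 0.07) and Psmb7 (134, 148 and 175 against 162, 183 and 214 CPM, 0.28 ± 0.06) were higher in 6 of 6 mice. Of the immunoproteasome genes Psmb8 passed (201, 221 and 276 against 230, 253 and 310 CPM, 0.17 ± 0.06, adjusted p = 0.0285), and it was no longer called under 3 of 8 alternatives. Psmb9 (0.10 ± 0.06) was higher in 5 of 6 mice and Psmb10 (-0.01 ± 0.07) in 3 of 6, and Psmb6 (0.04 ± 0.06) in 4 of 6. None of these 3 passed. Psmb11 was at 0.560 to 1.28 CPM in input and 0.0928 to 0.348 CPM in polysomal RNA (-2.09 ± 0.25).

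**Figure D3:**
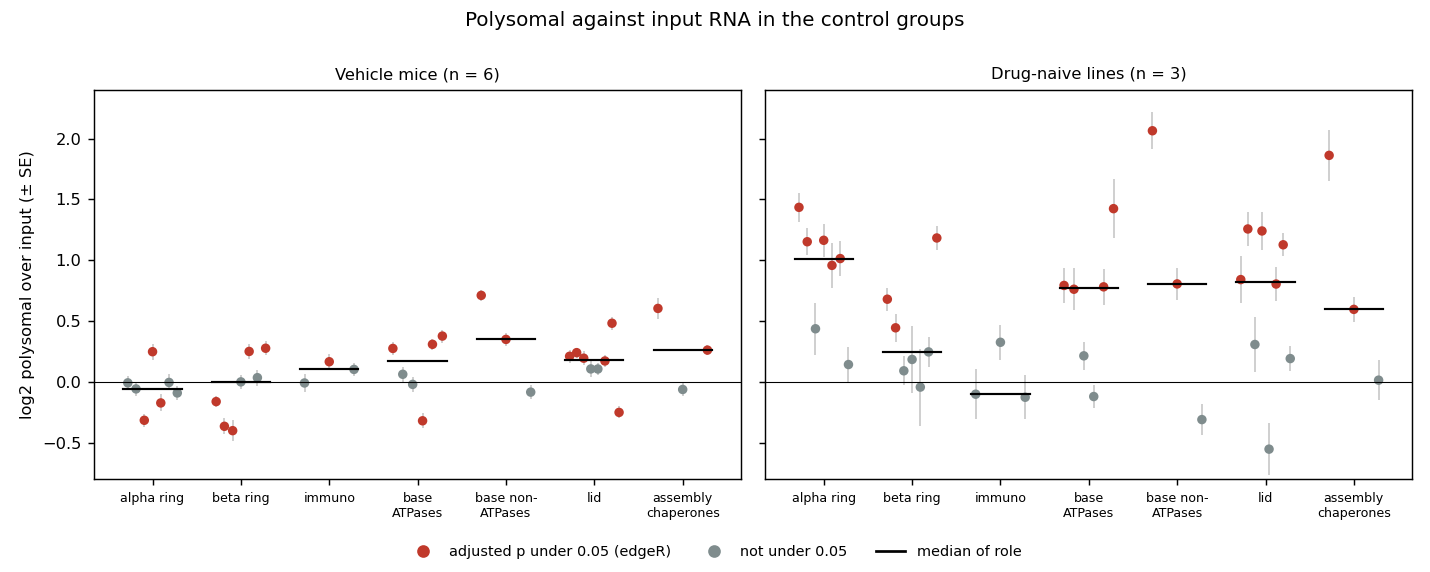
Log2 fold change of polysomal over input RNA (points, with bars of 1 standard error) for each proteasome gene by role, in vehicle mice of the acute study and drug-naive lines of the relapse study; red points have an adjusted p below 0.05 and horizontal bars are the median of a role. Psmd1 is the highest point in both panels (0.71 and 2.06). Of the immunoproteasome, Psmb9 and Psmb10 lie near 0 in both, with Psmb8 above them and called in vehicle mice.

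Genes that work with the proteasome were read from lists of its activators, assembly factors, antigen presentation and ubiquitin handling, and their counts in the combination mice are set against 4.17% of all genes called lower and 3.31% higher in input RNA. In input RNA of the combination mice the interferon-inducible activator subunits Psme2 (98.1 ± 13.3 against 132 ± 18.9 CPM, mean ± SD, n = 6; -0.42 ± 0.12) and Psme1 (157 ± 24.5 against 202 ± 22.5 CPM; -0.36 ± 0.10) fell, the 2 of 10 activators and associated proteins that passed. The core assembly chaperone Psmg1 was 1 of 5 that fell (-0.36 ± 0.10). Of 11 MHC class I genes 4 fell, among them the peptide transporter Tap1 (111 ± 15.5 against 148 ± 8.79 CPM; -0.42 ± 0.09) and H2-K1 (-0.35 ± 0.09). Of 13 interferon signalling factors 4 fell, with Irf7 at -0.84 ± 0.14 and Irf9 at -0.60 ± 0.10. Among genes of ubiquitin and its delivery the activating enzyme Uba1 fell (-0.34 ± 0.10). The median over the 4 genes that drive proteasome transcription was 0.01.

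After CX5461 alone, in which no immunoproteasome gene passed, 1 of 11 MHC class I genes and 3 of 13 interferon factors fell in input RNA, with Nlrc5, the activator of MHC class I transcription, at -0.42 ± 0.09 and Irf7 at -0.78 ± 0.14. In polysomal RNA after CX5461 4 MHC class I genes fell, led by Nlrc5 (-0.43 ± 0.10) and Tapbp (-0.42 ± 0.08), and after the combination Psme2 (-0.41 ± 0.12), Psmg1 (-0.32 ± 0.10) and B2m (-0.37 ± 0.11) were among those that fell. Of all genes 0.399% in input and 0.878% in polysomal RNA were called in either direction after CX5461. Between the combination and CX5461 in polysomal RNA, where the core and lid genes were lower, 3 of 5 core assembly chaperones were lower (Psmg2 at -0.34 ± 0.07 and Pomp at -0.31 ± 0.09), and so were 4 of 10 activators and associated proteins (Uchl5 at -0.38 ± 0.09 and Psme3 at -0.29 ± 0.06). There 5 of 11 MHC class I genes were higher and 3 lower, where 13.1% of all genes were called higher and 10.5% lower, with Nlrc5 at 0.63 ± 0.10 and Tap2 at 0.30 ± 0.07.

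Markers of T and NK cells were among the genes called lower in the combination mice, as were the immunoproteasome genes Psmb8, Psmb9 and Psmb10. In input RNA the 15 T cell markers summed to 88.6 to 118 CPM after vehicle, 63.5 to 75.5 CPM after CX5461, 71.0 to 105 CPM after everolimus and 62.2 to 88.5 CPM after the combination, with 10 of 15 called lower after the combination and 4 after CX5461. The NK cell markers summed to 8.13 to 12.6 CPM after vehicle and 5.01 to 7.82 CPM after the combination, with 3 of 8 called lower. Of all genes 4.17% were called lower after the combination, and 0.399% in either direction after CX5461. Marker sums of macrophages and dendritic cells overlapped between vehicle (557 to 663 CPM) and combination mice (529 to 594 CPM). So did those of stromal and endothelial cells (1034 to 1402 and 1225 to 1570 CPM) and erythroid cells (1154 to 2737 and 899 to 7253 CPM). The 3 immunoproteasome genes summed to 311 to 427 CPM after vehicle, 239 to 430 CPM after CX5461, 285 to 359 CPM after everolimus and 215 to 303 CPM after the combination. T cell RNA was also lower after CX5461, where the sum of the immunoproteasome genes overlapped with vehicle, which is a description and not a test. Fewer cells of a type and less RNA per cell cannot be told apart in bulk tissue, and the part of T and NK cells in the immunoproteasome result was not tested.

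In input RNA of the relapse lines edgeR called no immunoproteasome gene in the fit of all lines. In the CX5461 and combination lines the counts of called proteasome genes lay near the shares over all genes. In lines from CX5461 mice 2 of 38 genes were higher, against 4.61% of all genes called higher and 3.76% lower. The alpha ring subunit Psma5 had 37.7, 42.9 and 39.8 CPM in CX5461 lines 14, 39 and 20 and 24.5, 25.7 and 22.8 CPM in drug-naive lines 33, 38 and 6 (0.72 ± 0.14, adjusted p = 0.00995). Psmd4, the base subunit that captures ubiquitin chains, had 119, 118 and 102 CPM against 66.8, 66.4 and 56.0 CPM (0.84 ± 0.16, adjusted p = 0.0108). The groups did not overlap for either gene. With 3 lines in each group such separation is easily met. The share of all genes that met it was not counted, so in the relapse lines it is a description only. Psmd4 lost its call without line 14 (adjusted p = 0.0545), and both did without lines 14 and 39, where Psma5 was at 0.72 and Psmd4 at 0.70 with 1 line left, whose spread was taken from the other groups. DESeq2 called 2 genes. The immunoproteasome genes did not pass, at 0.26 ± 0.17 (Psmb8), -0.46 ± 0.18 (Psmb9; 21.1, 18.5 and 27.98 CPM in lines 14, 39 and 20) and 0.15 ± 0.19 (Psmb10), and neither did Psmb5 (0.19 ± 0.34), Psmb6 (0.10 ± 0.16) and Psmb7 (-0.01 ± 0.11). Without line 20 Psmb9 was called lower, and 3 genes passed.

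In lines from everolimus mice 8 of 38 genes were lower and 1 higher, against 5.46% of all genes called lower and 6.25% higher. The ATPase Psmc6 had 21.6, 26.6 and 27.7 CPM in everolimus lines 12, 26 and 4 against 40.4, 45.1 and 63.8 CPM in the drug-naive lines (-0.98 ± 0.23, adjusted p = 0.0246). The ATPase Psmc2 was at -0.79 ± 0.19, the alpha ring subunits Psma4 and Psma6 at -0.76 ± 0.16 and -0.67 ± 0.12, the lid subunit Psmd12 at -0.75 ± 0.15 and the base scaffold Psmd1 at -0.68 ± 0.19, with adjusted p from 0.0121 to 0.0393. The other 2 were at -0.71 and -0.61. The beta ring subunit Psmb3 rose, with 179, 237 and 203 CPM against 124, 149 and 118 CPM (0.66 ± 0.15, adjusted p = 0.0212). The groups did not overlap for any of the 9, with the share over all genes not counted. The 8 lower genes had transcripts of 46.7% GC (median), against 51.6% for 29 other proteasome genes and 49.9% for 13524 genes tested. The Spearman correlation of fold change with GC was 0.77 over 37 proteasome genes and 0.58 over all genes with a value, which share these 6 lines, and its part in the calls was not tested. Without everolimus line 12 edgeR called 0, with 2 without line 26, 5 without line 4 and 4 without drug-naive line 6.

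The immunoproteasome genes did not pass in input RNA of everolimus lines but stood above the drug-naive lines. Psmb8 had 120, 122 and 104 CPM in lines 12, 26 and 4 against 92.6, 92.1 and 63.1 CPM (0.48 ± 0.17, adjusted p = 0.0877). Psmb9 had 42.4, 41.5 and 39.1 CPM against 34.2, 34.0 and 24.7 CPM (0.41 ± 0.18, adjusted p = 0.146). Psmb10 had 86.4, 72.8 and 66.3 CPM against 58.7, 52.9 and 36.4 CPM (0.61 ± 0.19, adjusted p = 0.0595). Drug-naive line 6 was the lowest line for all 3. The groups did not overlap, and all 3 had an unadjusted p below 0.05. Neither is set against its share over all genes, so both are descriptions only. Of their counterparts Psmb6 was at 0.44 ± 0.16, Psmb5 at 0.40 ± 0.34 and Psmb7 at -0.17 ± 0.12, none past the threshold. DESeq2 called 13 of the 38 genes in this comparison, Psmb8 and Psmb10 among them. Psmb10 was also called with no filter on low counts, and both with the run of columns as a term.

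In lines from mice given both drugs 3 of 38 input transcripts were higher and 2 lower, against 7.2% of all genes called higher and 6.31% lower. Psmd4 had 129, 121 and 103 CPM in combination lines 8, 9 and 31 (0.90 ± 0.16, adjusted p = 0.00605). Psmb4, a structural beta subunit, had 92.4, 99.0 and 88.8 CPM against 57.1, 53.8 and 35.4 CPM in the drug-naive lines (0.94 ± 0.20, adjusted p = 0.0127), and Psma5 had 33.4, 36.6 and 41.4 CPM (0.61 ± 0.14, adjusted p = 0.0156). The ATPases Psmc6 (-0.85 ± 0.23, adjusted p = 0.0317) and Psmc1 (-0.50 ± 0.15, adjusted p = 0.0422) were lower. The groups did not overlap for any of the 5, again with the share over all genes not counted. The immunoproteasome genes Psmb8 (0.52 ± 0.17), Psmb9 (-0.08 ± 0.18) and Psmb10 (0.18 ± 0.19) did not pass by edgeR. DESeq2 called 11 genes, Psmb8 among them, and Psmb8 was also called with no filter on low counts and with the run of columns as a term. Leaving out combination line 9 lowered the count to 1.

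**Figure D4:**
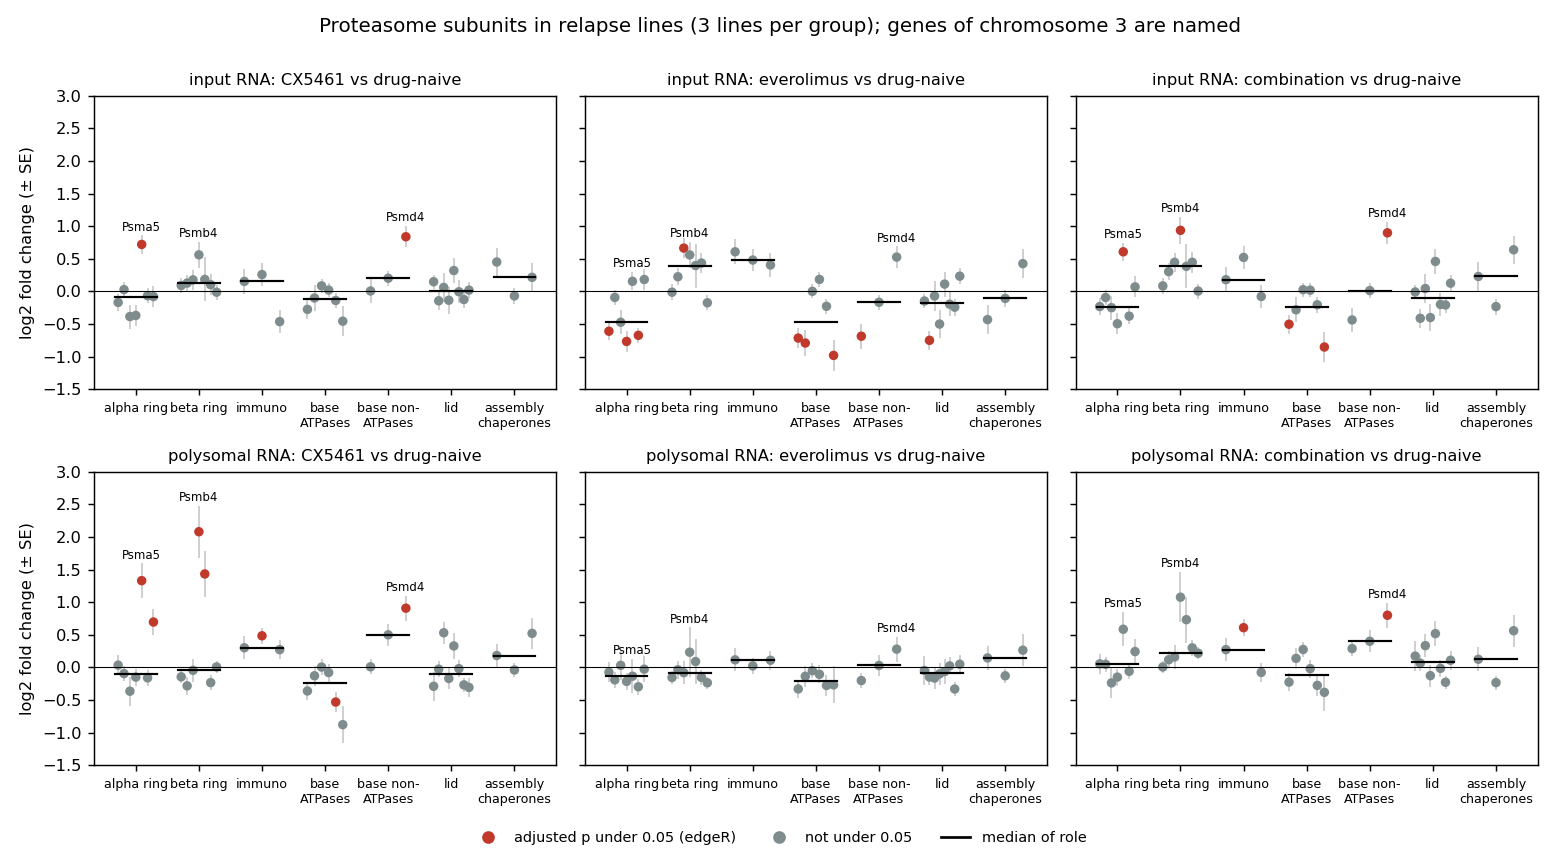
Log2 fold change against the drug-naive lines (points, with bars of 1 standard error) of each proteasome gene in the relapse study, by role, for lines from CX5461, everolimus and combination mice in input and polysomal RNA; red points have an adjusted p below 0.05, horizontal bars are the median of a role, and the 3 genes on chromosome 3 are named. Psma5, Psmb4 and Psmd4 are among the highest points of the CX5461 and combination panels, and reach 2.08 (Psmb4) in the polysomal RNA of CX5461 lines.

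In polysomal RNA of the CX5461 lines 6 of 38 genes were higher and 1 lower, against 11.4% of all genes called higher and 8.08% lower. The columns of lines 14 and 39 set most of these. Psmb4 had 510, 446 and 135 CPM in lines 14, 39 and 20 against 78.8, 89.9 and 89.7 CPM in drug-naive lines 33, 38 and 6 (2.08 ± 0.40, adjusted p = 0.0103). Psmb5 had 178, 155 and 59.5 CPM against 41.9, 47.0 and 56.3 CPM (1.43 ± 0.36, adjusted p = 0.0241). Line 20 stood only just above the drug-naive lines for Psmb5. Psma5 had 239, 225 and 102 CPM against 76.9, 83.9 and 64.6 CPM (1.33 ± 0.27, adjusted p = 0.0120), and Psmd4 had 168, 156 and 128 CPM against 77.9, 80.2 and 82.8 CPM (0.91 ± 0.19, adjusted p = 0.0150). The alpha ring subunit Psma7 (0.70 ± 0.20) rose with overlap, and the ATPase Psmc5 fell by 0.53 ± 0.16 on the log2 scale (97.4, 97.2 and 142 CPM against 159, 166 and 161 CPM).

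Psmb8 was the 1 immunoproteasome gene that rose in the polysomal RNA of CX5461 lines, with 263, 219 and 197 CPM in lines 14, 39 and 20 against 158, 180 and 148 CPM, without overlap (0.48 ± 0.13, adjusted p = 0.0269). Psmb9 (0.27 ± 0.15) and Psmb10 (0.30 ± 0.17) did not pass, nor did Psmb6 (-0.23 ± 0.12) and Psmb7 (0.01 ± 0.09). Without lines 14 and 39 edgeR called no proteasome gene, with Psmb4 at 0.64, Psmb5 at 0.29, Psma5 at 0.43, Psmd4 at 0.67 and Psmb8 at 0.28. With the run of columns as a term in the model none was called either, and Psmb5 was at -0.02. Without line 20 the count rose to 20. It was 0 without drug-naive line 33, 2 without drug-naive line 38, 2 without line 14 and 3 without line 39.

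In polysomal RNA of the everolimus lines edgeR called 0 of 38, with 4 at an unadjusted p below 0.05 and 0 by DESeq2, against 0.115% of all genes. Psmd7 had the smallest p, with 131, 136 and 126 CPM in lines 12, 26 and 4 against 171, 174 and 148 CPM in drug-naive lines 33, 38 and 6 (-0.33, adjusted p = 0.373). Psmb8 was at 0.02, Psmb9 at 0.11 and Psmb10 at 0.12. In polysomal RNA of the combination lines 2 of 38 genes rose, against 4.78% of all genes called higher and 5.22% lower. Psmb8 had 251, 229 and 260 CPM in lines 8, 9 and 31 (0.61 ± 0.13, 247 ± 16.0 against 162 ± 16.2 CPM, mean ± SD, n = 3, adjusted p = 0.0148). Psmd4 had 118, 137 and 165 CPM (0.80 ± 0.19, adjusted p = 0.0287). For both genes every combination line was above all drug-naive lines, with the share over all genes not counted. Psmb9 (-0.08 ± 0.15) and Psmb10 (0.27 ± 0.17) did not pass. DESeq2 called 4 genes, and leaving out 1 line gave 0 to 2, with 0 without drug-naive line 6, drug-naive line 33 or combination line 31.

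Psma5 (chr3:108256926-108279974, plus strand), Psmb4 (chr3:94884093-94886961, minus strand) and Psmd4 (chr3:95032694-95042614, minus strand; GRCm38, GENCODE M21) are the 3 proteasome genes on chromosome 3. In input RNA of the CX5461 and combination lines, each proteasome gene called higher was one of these 3. Genes on chromosome 3 were called higher more often than the rest in the same lines. In input RNA of the CX5461 lines 16.2% of 617 genes on chromosome 3 were called higher, against 4.09% of genes elsewhere, and in the combination lines 23.5% against 6.47%. In the everolimus lines, where none of the 3 proteasome genes passed, it was 9.40% against 6.11%.

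The median level of chromosome 3 against the drug-naive lines, in log2, was 0.54 in CX5461 line 20, 0.26 in line 14 and 0.25 in line 39, and 0.47, 0.42 and 0.48 in combination lines 8, 9 and 31 of the input. It was 0.26 in everolimus line 12, 0.02 in line 26 and 0.09 in line 4. In everolimus line 12 chromosomes 17 and 7 had the same median of 0.26 in input RNA, so chromosome 3 as a whole did not stand apart there. Between 80 and 100 Mb the input median was 0.59 in line 12, 0.21 in line 26 and 0.36 in line 4. In polysomal RNA chromosome 3 ranked highest in line 12 (0.26, others up to 0.10) and in line 4 (0.13, others up to 0.03). Everolimus line 12 was also the everolimus line with the highest Psma5 (32.4 CPM), Psmb4 (94.2 CPM) and Psmd4 (115 CPM), against 23.4 to 25.4, 58.2 to 63.3 and 75.05 to 82.3 CPM in the other 2. In polysomal RNA the median was 0.50 in CX5461 line 20 over the whole chromosome, but 0.03 in line 14 and 0.05 in line 39. In these last 2 it was 0.51 and 0.47 between 80 and 100 Mb, where Psmb4 and Psmd4 lie. It was 0.33 and 0.35 between 100 and 120 Mb, where Psma5 lies, and negative elsewhere. The input RNA of lines 14 and 39 was likewise raised in part of the chromosome, by 0.62 and 0.60 between 80 and 100 Mb. It was 0.41 in both between 100 and 120 Mb and -0.21 to 0.00 in the other windows. The part of the shift over the chromosome in the values of the 3 genes was not tested.

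**Figure D5:**
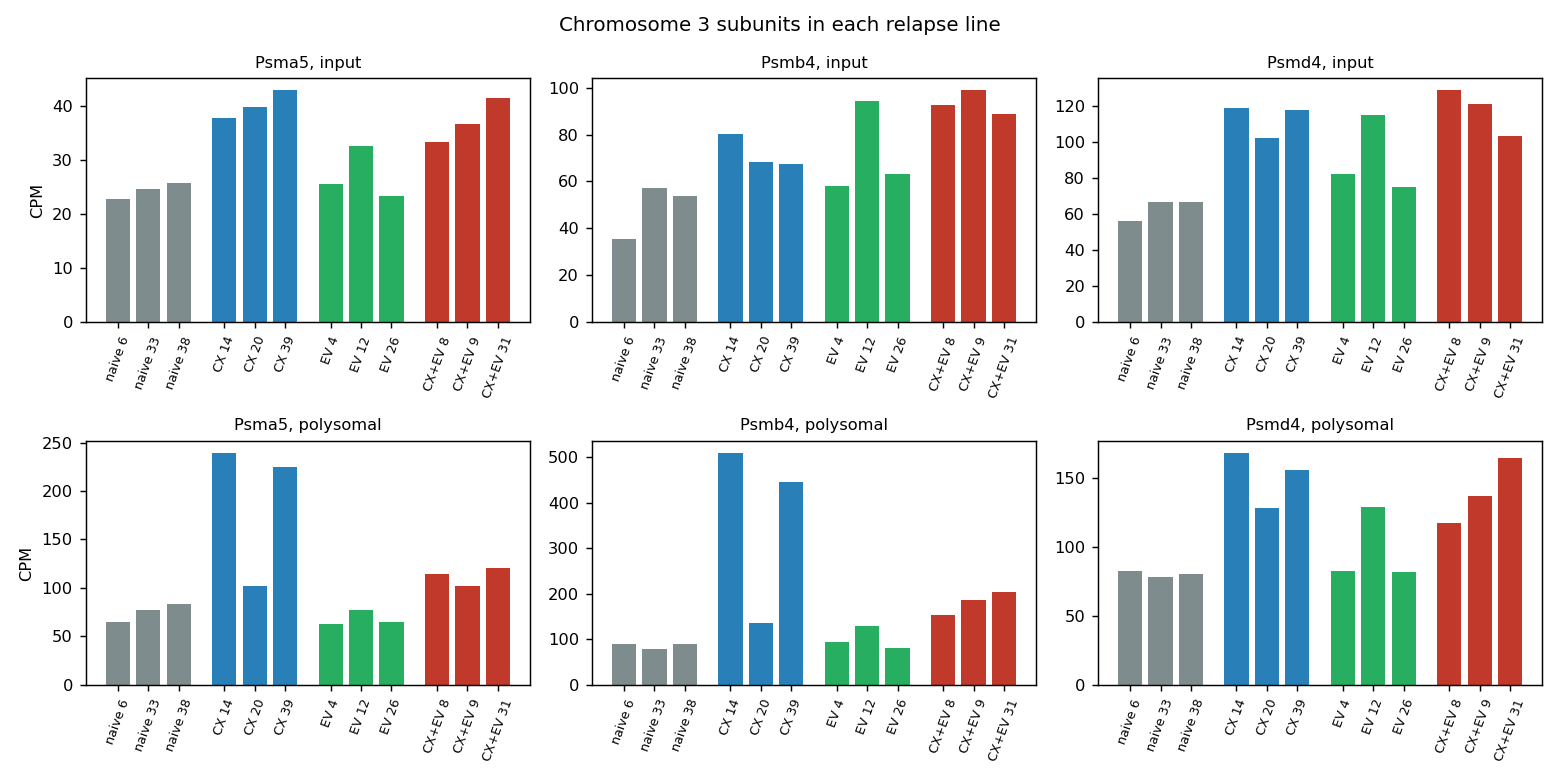
CPM of Psma5, Psmb4 and Psmd4 in each relapse line (bars), in input and polysomal RNA, by the treatment of the mouse the line came from. CX5461 lines 14 and 39 are the highest in polysomal RNA for Psma5 and Psmb4 (510 and 446 CPM for Psmb4, against 135 in line 20), and for Psmd4 combination line 31 (165 CPM) lies between them, and everolimus line 12 lies above the other 2 everolimus lines for all 3 genes.

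Translational efficiency in the relapse lines showed no call: edgeR called 0 of 38 genes for CX5461, everolimus and combination lines, where 0% of all genes were called in each of the 3. On simulated combination data this fit recovered 0% of planted 1.5-fold, 4.48% of 2-fold and 59.1% of 4-fold changes. The lack of calls thus does not show that loading was unchanged. At an unadjusted p below 0.05 there were 8, 8 and 2 genes, and DESeq2 called 2, 1 and 0. Leaving out CX5461 line 20 gave 10 calls for CX5461. The medians were -0.07, -0.07 and 0.12. The smallest p belonged to Psma7 in CX5461 lines (0.66, adjusted p = 0.202), Psmb3 in everolimus lines (-0.72, adjusted p = 0.366) and Psmd1 in combination lines (0.71, adjusted p = 1).

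In drug-naive lines, polysomal RNA held a larger share of proteasome transcripts than input RNA. Of 38 genes 21 were higher and 1 lower, against 23% of all genes called higher and 21.1% lower, with a median of 0.64 against -0.10 over all genes. Of the regulatory genes 11 of 17 and of the constitutive core genes 8 of 14 were higher. Psmd1 had 31.4, 31.6 and 48.8 CPM in input of lines 33, 38 and 6 and 136, 165 and 159 CPM in polysomal RNA (2.06 ± 0.15, 4.18-fold higher, adjusted p = 1.38e-05). Psmd10 had 3.09, 2.64 and 3.44 CPM against 12.1, 11.7 and 9.59 CPM (1.86 ± 0.21), and the alpha ring subunit Psma1 had 35.1, 35.5 and 44.1 CPM against 84.0, 103 and 125 CPM (1.44 ± 0.12). These were higher on polysomes in 3 of 3 lines without overlap, as were all 21. Psma3, Psmb8 and Psmd8 were also higher and Psmd4 lower without overlap, and none of them passed. The share of all genes without overlap was not counted.

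Psmc6 was at 1.42 ± 0.24, Psmd12 at 1.26 ± 0.14, Psmd14 at 1.24 ± 0.16 and Psmb7 at 1.18 ± 0.10 (76.3, 84.0 and 72.7 against 164, 182 and 183 CPM). The immunoproteasome genes did not pass by edgeR. Psmb8 had 117, 117 and 80.7 CPM in input and 126, 145 and 120 CPM in polysomal RNA (0.33 ± 0.15, adjusted p = 0.0904). Psmb9 had 43.4, 43.3 and 31.6 CPM against 30.1, 40.5 and 37.4 CPM (-0.13 ± 0.18), and Psmb10 had 74.5, 67.4 and 46.5 CPM against 48.3, 56.7 and 69.6 CPM (-0.10 ± 0.20). Both were higher on polysomes in line 6 and lower in the other 2 lines. Psmb5 showed the same split, with 54.3, 52.3 and 21.5 CPM against 33.3, 37.9 and 45.9 CPM. In both fractions line 6 lay in another run of columns than lines 33 and 38, so line and run cannot be told apart here. The Spearman correlation of the difference with GC content was -0.83 over 37 proteasome genes and -0.48 over 14531 genes in these lines, against -0.17 and -0.11 in vehicle mice, and its part in the result was not tested.

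Among the other genes of the pathway in relapse, the ubiquitin-activating enzyme Uba1 was higher in input RNA of all 3 drug groups, at 0.54 ± 0.11 in CX5461, 0.53 ± 0.11 in everolimus and 0.46 ± 0.11 in combination lines. These groups did not overlap with the shared drug-naive lines, with the share over all genes not counted. Ubqln4, a shuttle that carries ubiquitin-tagged proteins to the proteasome and is also one of the 13 genes of ubiquitin and its delivery, was at 1.05 ± 0.15, 0.75 ± 0.15 and 1.14 ± 0.15. These were the 2 of 13 that passed in each comparison, where 4.61%, 6.25% and 7.2% of all genes were called higher. The part that a shift over chromosomes, as on chromosome 3, had in the values of Ubqln4 was not tested. Shfm1, the small lid subunit also called Sem1, was lower in CX5461 (57.4 ± 6.90 against 124 ± 12.4 CPM, -1.11 ± 0.14) and combination lines (-0.88 ± 0.14). Shfm1 lies on chromosome 6, whose median over all genes was -0.46 to -0.55 in the input of every CX5461 and combination line and -0.06 to 0.05 in the drug-naive lines, and the part of that shift in its value was not tested. The interferon-linked activator of MHC class I, Nlrc5, was higher in CX5461 (0.77 ± 0.19) and everolimus lines (1.09 ± 0.19). In polysomal RNA of CX5461 lines the core assembly chaperones Psmg3 (2.19 ± 0.51) and Pomp (0.53 ± 0.16) rose, 2 of 5, and Shfm1 (-1.56 ± 0.39) and the activator Psme4 (-0.84 ± 0.19) fell, 2 of 10. There 11.4% of all genes were called higher and 8.08% lower. Psme4 was also lower in polysomal RNA of combination lines (148 ± 1.64 against 257 ± 41.2 CPM, -0.80 ± 0.19), where Tap2 (0.72 ± 0.13) rose and Jak2 (-0.81 ± 0.18) was among 4 of 12 interferon factors that fell. Of all genes 5.22% were called lower and 4.78% higher in these lines.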

How the data were processed

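RNA sequencing libraries of input and polysomal RNA were made by ribosomal RNA depletion, per the labels' protocols. Per the submitters' processing notes, the authors used TopHat2, HTSeq and the build GRCm38. Versions, annotation and strand setting are not given in the sources used here. The 4 deposited tables hold counts per gene, and 0 of their columns matched no sample. Counts were tested with edgeR 4.0.16 (R 4.3.3, quasi-likelihood, TMM scaling, filter on low counts, all groups of a table in 1 fit). DESeq2 1.42.0 was an alternative. CPM were scaled with TMM, by table, or over both fractions where fractions are compared, with the mouse or line as a block. Replicate numbers did not pair mice across treatments (mean correlation of deviations 0.0115 in input and -0.0265 in polysomal RNA). The polysomal library most like an input library was that of the same mouse in 21 of 24 (mean correlation 0.433). In the relapse study it was that of the same line in only 4 of 12 (mean 0.216, lowest -0.229), so the block on line rests on the labels. Nothing says how mice or lines were allocated, and p-values measure the spread between these samples. Tested on simulated combination data, the fits recovered 83.6% of planted 1.5-fold changes in acute input (15925 genes) and 86.6% in acute polysomal RNA (15270 genes), but 4.48% in relapse input (14248 genes) and 2.99% in relapse polysomal RNA (14474 genes), and 44.8% and 26.9% of 2-fold changes there. Members and lists were chosen with earlier results of these data known. Named were Psmb5 to Psmb10 throughout, per comparison and role the called genes with the 2 largest changes, and from other lists up to 2 called genes per direction. Transcript GC content and gene positions are from GENCODE M21 and promoters from RefSeq.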

Additional observations from a re-analysis of the deposited data

Results flagged for a closer look

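Among 80 groups of 6 mice (10 proteasome genes named above, in each treatment and fraction of the acute study), 4 had a mouse set apart from its group by a gap above the critical value of Dixon's test at 95%, which chance gives in about 1 in 20 groups. CX5461 mouse 3 was low in input RNA for both ATPases called after the combination: Psmc3 was at 148 CPM against 183 to 196 CPM in the other mice, and Psmc4 at 127 CPM against 163 to 172 CPM. Everolimus mouse 5 was low in polysomal RNA for Psmb6, at 123 CPM against 154 to 171 CPM. Everolimus mouse 2 was high in input RNA for Psmd12, at 89.4 CPM against 73.7 to 78.5 CPM.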

How the results depend on the processing

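Counts of called proteasome genes moved by over 1.5 times under these settings. The combination in acute input (5 genes) had 10 with DESeq2, 3 with no filter on low counts and 18 without vehicle mouse 6 and combination mouse 3. These 2 mice were left out after an earlier look at the data, and in Psmb9 they lie nearest the other group. Counts without them are therefore not taken as support. Combination against CX5461 in acute input (1 gene) had 10 with DESeq2, 7 without those 2 mice, and 0 with no filter, the compared groups alone, the replicate block, after dropping the 3 libraries with much Gm26870 and Gm10800, or without everolimus mouse 3. The combination in acute polysomal RNA (3 genes) had 9 with DESeq2, 21 without those 2 mice, 0 with no filter, 1 with the replicate block and 1 without everolimus mouse 3. Combination against CX5461 in acute polysomal RNA (15 genes) had 9 after dropping the 4 libraries with much Lars2 and Yam1. Replicate numbers are only numbers here, and with the replicate block acute input had 4 for the combination and acute polysomal RNA 14 against CX5461. Without the replicate block the fraction comparisons had 18 genes in vehicle mice (24 with it) and 23 in drug-naive lines (22 with it). No paired analysis was possible across relapse treatments because line numbers are not shared.

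In relapse, leaving out 1 line at a time gave 1 to 3 genes in input of CX5461 lines, 0 to 8 in everolimus and 1 to 6 in combination lines, and in polysomal RNA 0 to 20 in CX5461 and 0 to 2 in combination lines. Without CX5461 lines 14 and 39 there were 0 in input and 0 in polysomal RNA. With the run of columns as a term, counts were 18 (everolimus input), 15 (combination input), 0 (CX5461 polysomal) and 7 (combination polysomal), and Psmb5 in CX5461 polysomal RNA turned from 1.43 to -0.0226. The compared groups alone gave 5 (everolimus input), 1 (CX5461 polysomal) and 6 (combination polysomal), and DESeq2 gave 11 (combination input), 11 (CX5461 polysomal) and 4 (combination polysomal). For translational efficiency CX5461 lines had 2 with DESeq2, 2 with no filter and 0 to 10 leaving out 1 line, and everolimus lines 1 with DESeq2. The causes of these moves were not tested. For single genes 668 values kept direction and call, 153 lost the call and 1 turned. Relapse groups of 3 lines limit the tests to large changes. Exonic reads were counted by the authors with no stated use of strand, so overlapping antisense transcripts cannot be told apart.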
